A study of Mus musculus with 18 samples.

Results

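The 10 genes described here build, fill and empty the sarcoplasmic reticulum (SR) calcium store of muscle, and they were followed in C2C12 myotubes. They are the calcium pumps Atp2a1 and Atp2a2, the pump inhibitor Sln, the release channels Ryr1 and Ryr3, the luminal calcium buffers Casq1 and Casq2, and the triad proteins Trdn, Jph1 and Jsrp1. The 10 genes were listed by symbol, out of 55414 genes in the count table, after fold changes in the same libraries were known. Their levels, fold changes, calls and counts at an unadjusted p are therefore a description, and no p-value of a single listed gene is given. All 10 symbols matched 1 gene identifier each, and 9 of them, every one but Sln, passed the filter of at least 10 counts in total over all libraries.

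C2C12 is a mouse cell line whose myoblasts join into multinucleate myotubes once serum is lowered. Confluent myoblasts received non-targeting siRNA (siNTC) or siRNA pools against Erk3 (siErk3, gene Mapk6) or Mk5 (siMk5, gene Mapkapk5), and after 6 days of differentiation they spent 16 h without serum, either in BSA alone or in palmitic acid (PA, 0.5 mM) carried by BSA. Each of the 6 groups (siNTC, siErk3 and siMk5, each in BSA and in PA) has 3 libraries, 18 in all, from this 1 cell line. Whether the libraries of a group came from separate cultures is not stated, so p-values measure only the spread between these libraries.

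In muscle, an action potential in the T-tubule is sensed by the dihydropyridine receptor, which opens the ryanodine receptor of the facing SR, and the released calcium starts contraction. Pumps of the SERCA family return the calcium, calsequestrin holds it in the lumen, and triadin, junctophilin and JP-45 keep the parts of the triad together. SERCA1, from Atp2a1, is the pump of fast fibers, and SERCA2, from Atp2a2, is that of slow fibers, heart and most other cells.

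Total counts ran from 13041979 to 28496727 per library. The ribosomal transcript Rn18s-rs5 took 1.497% to 12.87% of the counts, with the 3 siMk5 BSA libraries between 8.39% and 12.87%. Mapk6 was lower in siErk3 than in siNTC by a log2 fold change of -1.20 ± 0.06 (SE, n = 3 against 3) in BSA and of -0.95 ± 0.06 in PA. With PA, Mapk6 was called higher than in BSA under each siRNA, by 0.81, 1.06 and 0.74 in siNTC, siErk3 and siMk5. Mapk6 and Mapkapk5 together summed to 112 to 135 CPM in siErk3 PA and to 132 to 138 CPM in siNTC BSA. Mapkapk5 differed by -0.61 ± 0.21 in siMk5 BSA and by -0.49 ± 0.18 in siMk5 PA, at 1.18 to 2.54 CPM (counts scaled to the library size) in the 6 BSA libraries compared, and passed the test in neither medium (edgeR adjusted p = 0.469 in both). Its library ranges lay below those of siNTC in both media.

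The cells were checked against fixed markers. The 7 myotube markers (Myog, Ckm, Acta1, Des, Myh3, Tnnt3, Mymk) summed to between 9186 and 11348 CPM in the BSA libraries and to between 8733 and 10118 CPM in the PA libraries. In each comparison of PA with BSA 6 of the 7 had log2 fold changes below 0, of which Myog, Ckm and Mymk passed the test as lower in siNTC and Myog alone in siErk3 and in siMk5. The 6 markers of undifferentiated or cycling myoblasts (Pax7, Myf5, Mki67, Top2a, Cdk1, Ccnb1) summed to between 870 and 944 CPM in the BSA libraries and to between 363 and 480 CPM in the PA libraries. In each comparison of PA with BSA 5 of these 6 passed the test as lower, all but Myf5. Of all genes, 15.1%, 16.3% and 14.6% passed as lower in siNTC, siErk3 and siMk5. The 1 of 7 myotube markers in siErk3 and in siMk5 is near that share. Of the heart markers, Myl7 had 1 count and Nppa 13 counts in all 18 libraries, and Myh6, whose sequence is close to that of Myh7, was detected. Myh6 had 11.1 to 14.5 CPM in siNTC BSA, 19.9 to 20.2 CPM in siErk3 BSA and 18.5 to 19.04 CPM in siMk5 BSA, and it was called higher in both silenced groups than in siNTC. In PA it had 9.58 to 15.6 CPM over the 9 libraries and was called lower than in BSA in siErk3 and in siMk5. In bulk RNA, fewer cells of a type and less RNA per cell cannot be told apart, and the part of these shifts in the values that follow was not tested.

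The promoters below are shown for a pump that was lower in PA, Atp2a1, and for the genes of the largest rises in siNTC among the other calcium handling genes, the pump Atp2a3 and the luminal calcium binder Calr. Each line holds the 250 bases before the start site, 5′ to 3′ on the strand of the gene, from RefSeq on GRCm38.p6. Capitals mark matches on either strand to an E-box of myogenic factors, CAGCTG, or to the endoplasmic reticulum stress element ERSE, CCAAT and CCACG with 9 bases of any kind between them, which do not overlap here. Both motifs were chosen after the values were seen.
Atp2a1: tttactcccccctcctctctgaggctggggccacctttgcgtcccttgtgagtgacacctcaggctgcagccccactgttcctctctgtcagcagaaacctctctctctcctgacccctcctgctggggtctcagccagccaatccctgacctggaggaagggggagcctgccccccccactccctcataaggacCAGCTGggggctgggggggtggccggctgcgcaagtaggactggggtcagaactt
Atp2a3: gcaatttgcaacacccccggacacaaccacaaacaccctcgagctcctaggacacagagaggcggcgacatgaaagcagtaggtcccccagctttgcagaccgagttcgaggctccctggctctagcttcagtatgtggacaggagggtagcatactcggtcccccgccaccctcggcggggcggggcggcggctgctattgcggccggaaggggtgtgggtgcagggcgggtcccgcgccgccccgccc
Calr: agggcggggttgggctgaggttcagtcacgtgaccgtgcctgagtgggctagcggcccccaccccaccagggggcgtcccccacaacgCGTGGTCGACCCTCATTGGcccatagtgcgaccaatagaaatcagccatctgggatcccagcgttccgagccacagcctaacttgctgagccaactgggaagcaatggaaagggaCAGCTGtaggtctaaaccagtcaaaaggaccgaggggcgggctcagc
These windows lie at chr7:126463074-126463323 (minus strand), chr11:72960919-72961168 (plus strand) and chr8:84846932-84847181 (minus strand). Atp2a1 held 1 E-box, 55 bases before the start site. Calr held 1 E-box, at 47 bases, and 1 ERSE on the opposite strand, at 162 bases. Atp2a3 held neither. Of all 32851 promoter windows of this length, 13% (4271) held the E-box and 0.113% (37) the ERSE. Entries were matched for 4 of the 10 listed genes, Atp2a1, Ryr1, Casq1 and Casq2, of which Casq1 held 1 E-box at 195 bases and Ryr1 and Casq2 held neither motif. Atp2a2, Sln, Ryr3, Trdn, Jph1 and Jsrp1 had no entry.

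Levels were compared between genes as CPM per kb of exon length. This length counts all annotated exonic bases of a gene, so the order between genes depends on it. In siNTC BSA, Casq2, the calsequestrin of slow and cardiac muscle, was highest at 190 ± 12.9 CPM per kb (SD, n = 3). Atp2a2 at 92.7 ± 3.24, Atp2a1 at 81.3 ± 2.86 and Jsrp1, which encodes JP-45, at 64.0 ± 4.21 CPM per kb followed. Casq1, the calsequestrin of fast fibers, stood at 43.7 ± 3.48, Ryr1 at 23.4 ± 0.923 and Jph1 at 12.9 ± 0.325 CPM per kb. Each of these 7 was separated from its neighbour in the order by non-overlapping libraries. Trdn at 1.96 ± 0.264 and Ryr3 at 1.67 ± 0.153 CPM per kb closed the order, and their libraries overlapped.

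In siNTC PA, Atp2a2 came first at 203 ± 10.7 CPM per kb, ahead of Casq2 at 178 ± 7.64. Atp2a1 fell in the order to 35.8 ± 2.00 CPM per kb and overlapped Casq1 at 39.8 ± 2.12. No other gene changed its order relative to the rest.

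**Figure D1:**
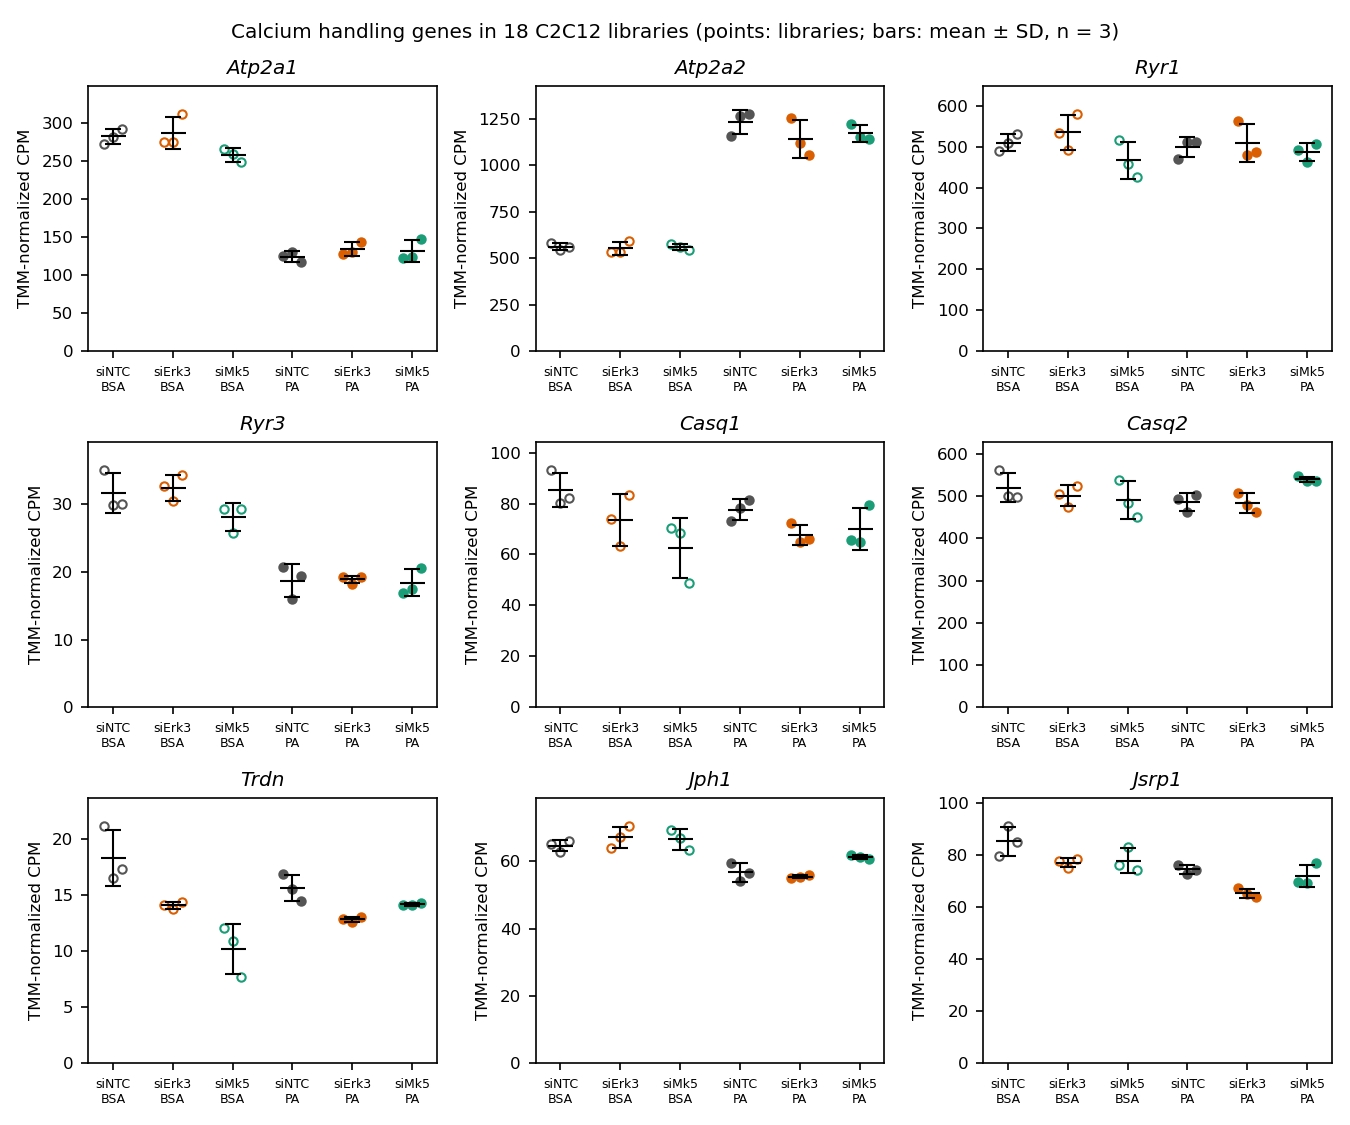
TMM-normalized CPM (vertical axes, from 0) of the 9 measured genes in the 6 groups, with 1 point per library and bars for the mean ± SD of 3 libraries. Open points are BSA and filled points PA. Atp2a1 and Ryr3 sit lower and Atp2a2 higher in all 9 PA libraries than in any BSA library, and Trdn is lowest in siMk5 BSA.

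The pumps showed the largest differences between PA and BSA. Atp2a1 (chr7:126045030-126062280 on GRCm39, minus strand, as all positions from the count table) had 273, 282 and 293 CPM in siNTC BSA and 125, 131 and 117 CPM in siNTC PA. It had 275, 275 and 312 CPM in siErk3 BSA against 128, 131 and 144 CPM in siErk3 PA, and 267, 259 and 249 CPM in siMk5 BSA against 123, 124 and 148 CPM in siMk5 PA. The highest PA library lay below the lowest BSA library in each of the 3 comparisons. The log2 fold changes were -1.18 ± 0.06 (SE, n = 3 against 3), -1.10 ± 0.06 and -0.97 ± 0.06 in siNTC, siErk3 and siMk5, or 2.27-, 2.14- and 1.96-fold lower.

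Atp2a2 (chr5:122591576-122640288, minus strand) went the other way. It had 584, 544 and 563 CPM in siNTC BSA and 1159, 1267 and 1275 CPM in siNTC PA. In siErk3 it had 533, 535 and 595 CPM in BSA and 1255, 1120 and 1055 CPM in PA, and in siMk5 575, 561 and 545 CPM in BSA and 1223, 1151 and 1144 CPM in PA. The lowest PA library of each comparison lay above its highest BSA library. The log2 fold changes were 1.13 ± 0.06, 1.04 ± 0.06 and 1.06 ± 0.06 (SE), or 2.19-, 2.06- and 2.09-fold higher.

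The pump transcripts thus went from near parity per kb of exon length to a large excess of Atp2a2. As CPM, siNTC BSA already had 564 for Atp2a2 and 283 for Atp2a1, at exon lengths of 6081 and 3477 bases. Per length, the log2 ratio of Atp2a1 to Atp2a2 was -0.19 ± 0.09 (SD, n = 3) in siNTC BSA, -0.14 ± 0.01 in siErk3 BSA and -0.31 ± 0.01 in siMk5 BSA. In PA it was -2.503 ± 0.118, -2.28 ± 0.21 and -2.35 ± 0.19. The ratio was thus 4.97-fold lower in siNTC, 4.40-fold lower in siErk3 and 4.11-fold lower in siMk5, with no overlap between media. The 50-base stretches of the transcripts of these 2 genes had 0 in common, so stretches of that length can be told apart between them.

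With Atp2a3, which encodes SERCA3, a pump mainly known from cells other than muscle, the composition of all 3 SERCA transcripts could be given. Transcripts of Atp2a1 and Atp2a3 had 4 stretches of 50 bases in common, and those of Atp2a2 and Atp2a3 had 0. Atp2a1 made up 46.7% ± 1.49 (SD, n = 3) of the summed CPM per kb in siNTC BSA and 14.7% ± 1.01 in siNTC PA. Atp2a2 made up 53.2% ± 1.501 and 83.0% ± 1.02, and Atp2a3 0.139% ± 0.0248 and 2.37% ± 0.118. The sum itself was 174 ± 3.16 CPM per kb in siNTC BSA and 244 ± 10.6 in siNTC PA, so that the larger Atp2a2 level exceeded the loss of Atp2a1. The same sums were 174 ± 11.8 and 233 ± 14.4 in siErk3, and 167 ± 5.03 and 237 ± 5.67 in siMk5.

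**Figure D2:**
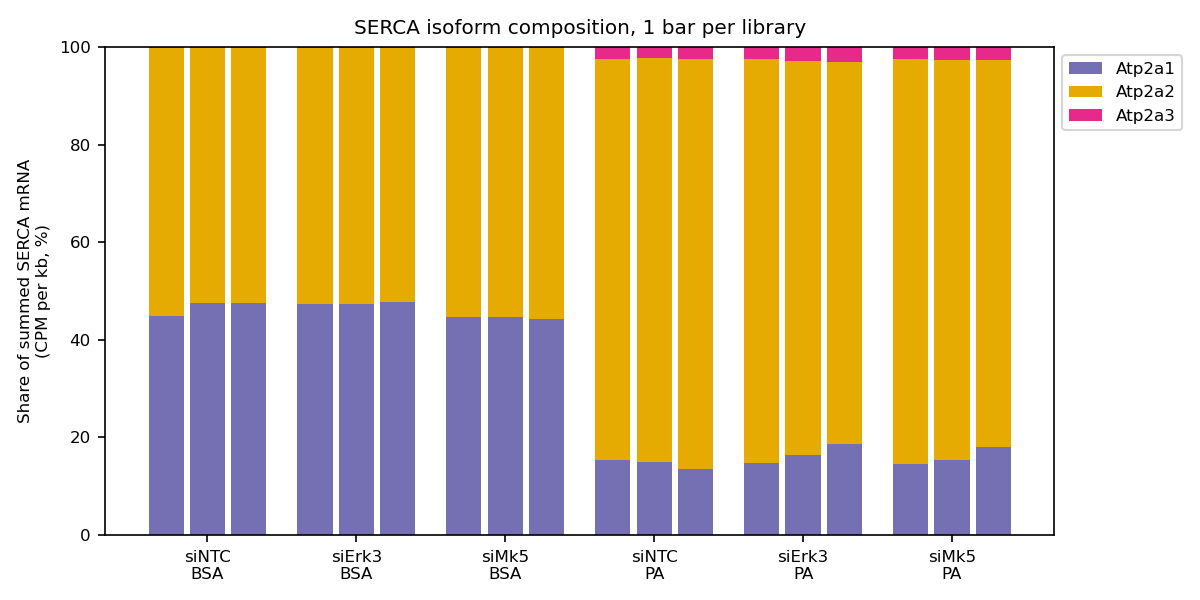
Share of Atp2a1, Atp2a2 and Atp2a3 in the summed SERCA CPM per kb (vertical axis, percent), with 1 stacked bar per library. Atp2a1 holds 44.3% to 47.7% in the BSA libraries and 13.5% to 18.7% in the PA libraries.

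Transcripts of 2 small membrane proteins that inhibit SERCA, Sln and Pln, were nearly absent. Sln (chr9:53757448-53761844, plus strand), which encodes sarcolipin, had 9 counts over the 18 libraries, at least 1 in 8 of them and never more than 2. The floor used here, 3 counts, equals 0.105 to 0.230 CPM depending on the library, so differences of Sln between groups were not detectable at this depth. Pln, for phospholamban, had 4 counts in all. Floors and intervals of this kind cover counting error only.

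Among the release channels, Ryr1 (chr7:28702769-28824604, minus strand), the channel of adult skeletal muscle, had 490, 510 and 530 CPM in siNTC BSA and 470, 513 and 512 CPM in siNTC PA, which overlap. Its log2 fold changes in PA were -0.03 ± 0.06, -0.07 ± 0.06 and 0.06 ± 0.06 (SE) in siNTC, siErk3 and siMk5. Ryr3 (chr2:112461700-113047441, minus strand), a second channel known from developing muscle, had 35.0, 29.8 and 30.1 CPM in siNTC BSA and 20.7, 16.1 and 19.4 CPM in siNTC PA. It had 32.7, 30.4 and 34.2 CPM in siErk3 BSA against 19.2, 18.2 and 19.2 CPM in PA, and 29.3, 25.8 and 29.3 CPM in siMk5 BSA against 16.9, 17.5 and 20.6 CPM in PA. All PA libraries lay below the BSA libraries. The log2 fold changes of Ryr3 were -0.75 ± 0.09, -0.78 ± 0.08 and -0.62 ± 0.09, and the per-length ratio of Ryr1 to Ryr3 was 14.04 in siNTC BSA and 23.3 in siNTC PA.

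The calsequestrins showed no such shift. Casq2 (chr3:101993731-102053830, plus strand) had 561, 501 and 499 CPM in siNTC BSA and 494, 463 and 502 CPM in siNTC PA, and Casq1 (chr1:172037461-172047435, minus strand) had 93.0, 80.4 and 82.4 CPM against 73.2, 78.2 and 81.4 CPM. Both pairs of groups overlap. The log2 fold changes in PA lay between -0.10 and 0.13 for Casq2 and between -0.13 and 0.16 for Casq1 over the 3 comparisons.

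Jph1 (chr1:17034784-17168113, minus strand), the junctophilin that ties the SR to the T-tubule, had 65.05, 62.9 and 66.1 CPM in siNTC BSA and 59.5, 54.1 and 56.4 CPM in siNTC PA. Jsrp1 (chr10:80644330-80649332, minus strand) had 79.8, 91.0 and 84.97 CPM against 76.2, 72.9 and 74.4 CPM. Both were lower in PA without overlap, but by small amounts, with log2 fold changes of -0.19 ± 0.05 and -0.20 ± 0.05 (SE). In siErk3 the differences were -0.28 ± 0.05 and -0.24 ± 0.05, and in siMk5 -0.12 ± 0.05 and -0.11 ± 0.05.

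A gene was called when its edgeR adjusted p was below 0.05 and its fold change above 1.3 in either direction. By this rule 3 of the 9 measured genes were called in siNTC PA against BSA (Atp2a1, Atp2a2 and Ryr3), where 30.6% of all 21772 genes tested were called. The same 3 were called in siErk3, with a background of 32.1%, and the 3 plus Trdn in siMk5, with a background of 29.7%. Groups did not overlap for 5 of 9 genes in siNTC, 6 of 9 in siErk3 and 5 of 9 in siMk5, against 51.3%, 53.9% and 51.9% of all genes. The median log2 fold change of the 9 genes was -0.19, -0.13 and 0.06, and that of all genes -0.03, -0.01 and -0.01. These counts use the contrasts known when the genes were listed and are a description only.

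**Figure D3:**
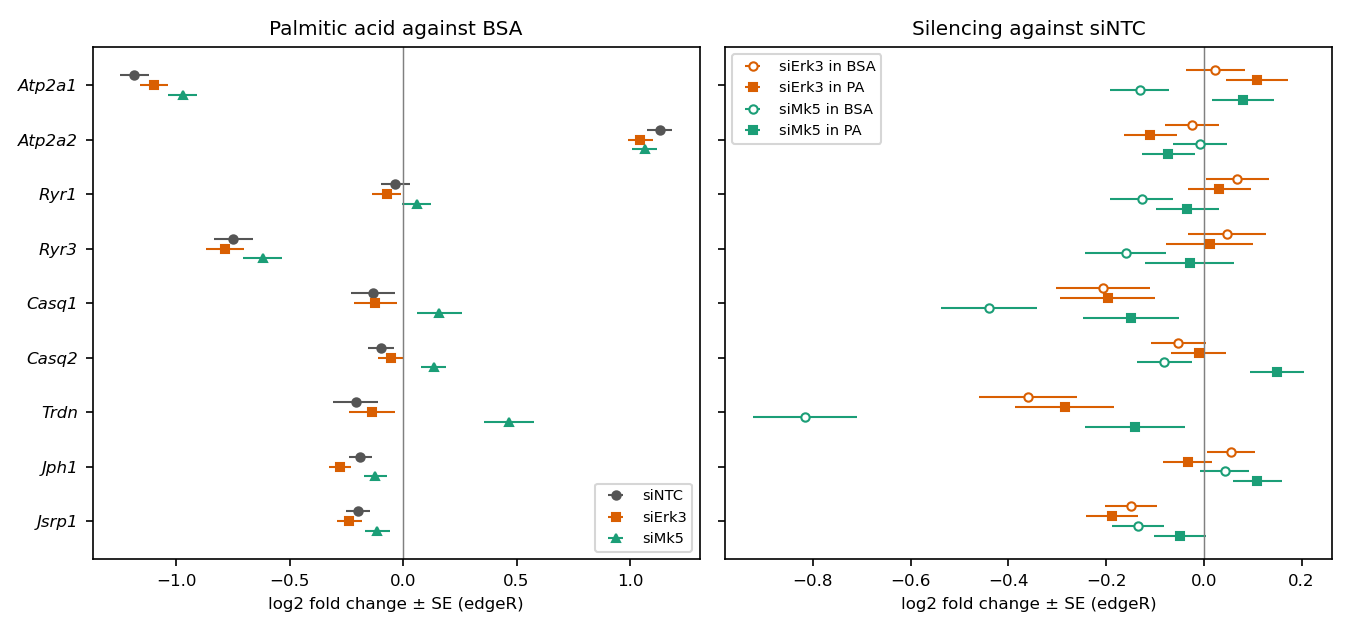
Log2 fold change ± SE (edgeR) of the 9 measured genes, for PA against BSA under each siRNA (left) and for siErk3 or siMk5 against siNTC in each medium (right). The axes of the panels differ in scale. Atp2a1 and Atp2a2 stand near -1 and 1 under all siRNAs on the left, and Trdn in siMk5 BSA stands lowest on the right, at -0.82.

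Silencing moved fewer of these genes, and the clearest difference was that of Trdn (chr10:32956550-33352705, plus strand), for triadin, which anchors calsequestrin at the ryanodine receptor. It had 21.1, 16.5 and 17.4 CPM in siNTC BSA, 14.2, 13.8 and 14.4 CPM in siErk3 BSA and 12.04, 10.9 and 7.69 CPM in siMk5 BSA. The 3 groups were stepped without overlap, with siMk5 lowest. Trdn was called as lower in siMk5 BSA against siNTC BSA, the only call among the 9 genes, where 0.0643% of all genes were called. Its log2 fold change there was -0.82 ± 0.11 (SE). These 9 BSA libraries held 149 to 402 Trdn counts each. The call is a description only, as Trdn was listed with fold changes in these libraries known.

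In PA the 3 groups lay closer. Trdn had 16.9, 15.6 and 14.5 CPM in siNTC PA, 12.9, 12.6 and 13.1 CPM in siErk3 PA and 14.1, 14.2 and 14.3 CPM in siMk5 PA. Neither silenced group overlapped siNTC, with log2 fold changes of -0.29 ± 0.10 (SE) in siErk3 and -0.14 ± 0.10 in siMk5, and neither was called. In siErk3 BSA the difference from siNTC was -0.36 ± 0.10, also not called.

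Between media, Trdn went in different directions. PA against BSA gave log2 fold changes of -0.21 ± 0.10 in siNTC and -0.13 ± 0.10 in siErk3, neither called, and of 0.47 ± 0.11 in siMk5, called as higher with no overlap. The change with PA in siMk5 minus that in siNTC was 0.68 ± 0.15, called, where 0.211% of all genes were. The difference between siErk3 BSA and siMk5 BSA, 0.46 ± 0.11, was called too, against 0.588% of all genes. The last was kept in 1 of 6 fits that each left out 1 library, at 0.30 to 0.60, and the former in 3 of 12, at 0.52 to 0.83. Both calls were lost with the Rn18s-rs5 share as a covariate, at 0.34 and 0.59, and when 10 counts were required in every library, at 0.45 and 0.69, so that the values kept their direction in these fits. Without siMk5 BSA replicate 3, the library at 7.69 CPM, the differences were 0.30 between siErk3 BSA and siMk5 BSA, 0.52 for the interaction and 0.29 for PA against BSA in siMk5, none of them called. The lower Trdn in siMk5 BSA than in siNTC BSA was called in all 6 such fits, at -0.96 to -0.66, and with the covariate, at -0.76. Trdn was listed with fold changes in these libraries known, so its calls and their persistence in the refits are a description only.

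The remaining 8 genes were not called in any comparison of silencing. In siErk3 BSA their log2 fold changes from siNTC lay within 0.21 of 0, and in siMk5 BSA the largest was that of Casq1, at -0.44 ± 0.10 (SE), with 70.2, 68.5 and 48.9 CPM against 93.0, 80.4 and 82.4 CPM and no overlap. With all genes unfiltered, or with only these 6 libraries in the fit, Casq1 was called as well, as it was without siMk5 BSA replicate 1, at -0.54. Without siMk5 BSA replicate 3, the library at 48.9 CPM, it was -0.30 and not called. Of the 9 genes, 0 were called in siErk3 BSA, in siErk3 PA and in siMk5 PA against siNTC by edgeR and 0 by DESeq2, with 3, 2 and 2 genes at an unadjusted p under 0.05, against 10.6%, 8.28% and 6.79% of all genes. In siMk5 BSA 4 of the 9, Trdn included, had an unadjusted p under 0.05, against 6.89%. The backgrounds of called genes in the first 3 comparisons were 0.785%, 0.556% and 0.547% of all genes. Groups did not overlap for 2 of the 9 genes in siErk3 BSA, 4 in siMk5 BSA, 3 in siErk3 PA and 3 in siMk5 PA, against 17.4%, 12.3%, 12.1% and 12% of all genes, and for 3 between siErk3 BSA and siMk5 BSA and 4 between siErk3 PA and siMk5 PA, against 15.3% and 14.7%. Between siErk3 PA and siMk5 PA 0 were called by either tool, with 3 at an unadjusted p under 0.05, against 10.2% of all genes, and a background of calls of 1.03%. Between siErk3 BSA and siMk5 BSA 5 of the 9, Trdn included, had an unadjusted p under 0.05, against 8.49%. The change with PA in siMk5 minus that in siNTC had 4 such genes, Trdn included, against 7.43%. For the change with PA in siErk3 minus that in siNTC the count was 0 by either tool, with 0 at an unadjusted p under 0.05, against 6.1%, and a background of calls of 0.0367%. The Atp2a1 and Atp2a2 changes with PA differed between siErk3 and siNTC by 0.09 ± 0.09 and -0.09 ± 0.08, and between siMk5 and siNTC by 0.21 ± 0.09 and -0.07 ± 0.08, none called. All counts of the 9 genes given here use genes listed with results known and are a description only.

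For each of 3 listed genes, the genes of most similar profile were taken by the root mean square difference of centred group means of log2 CPM over the 6 groups, among 10553 genes with at least 5 CPM on average. For Atp2a1 these were Tubb6, Btbd17 and Rdh5, with differences of 0.044 to 0.049 on the log2 scale. For Atp2a2 they were Bend3, Epha2 and Erlin1, at 0.028 to 0.032. For Trdn they were Clic3 at 0.12, its binding partner Casq1 at 0.12 and Ankrd23 at 0.15. Only 6 group means enter each profile, and closeness is a description only.

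Around the listed genes, 49 other genes of calcium handling in 5 lists were followed, of which 48 were tested (Pln was not). These lists too were chosen with earlier results of these data known. Their calls and p-values, here and below, are therefore a description and no independent test. In siNTC PA against BSA 8 were higher and 19 lower by the criteria, and 21 were not called. The median log2 fold change over the 48 was -0.15, and that of all genes -0.03. In siErk3 8 were higher and 18 lower, and in siMk5 8 and 14. The same 8 genes were called higher in all 3 comparisons, and 14 were called lower in all 3. The share of all genes called alike in all 3 was not computed, so these shared calls are a description only. Of all genes, 15.5% were higher and 15.1% lower in siNTC, 15.8% and 16.3% in siErk3, and 15.1% and 14.6% in siMk5.

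Of the SERCA relatives and regulators, 1 was higher and 1 lower of 3 tested in siNTC PA, against 15.5% and 15.1% of all genes. Atp2a3 had 1.19, 1.08 and 1.56 CPM in siNTC BSA and 30.3, 29.7 and 31.5 CPM in siNTC PA. It rose 23.7-fold, with a log2 fold change of 4.57 ± 0.11 (SE, edgeR adjusted p = 1.23e-24), and 22.6- and 20.1-fold in siErk3 and siMk5. Mrln, for the SERCA inhibitor myoregulin, fell from 2.71 ± 0.479 to 1.49 ± 0.611 CPM (SD, n = 3, edgeR adjusted p = 0.00653). Its call was lost without siNTC PA replicate 2, at a log2 fold change of -0.57. Mrln was also called lower in siErk3, a call lost in several fits with a library left out, and it was not called in siMk5.

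Of 15 release channel partners and SR lumen genes, 1 was higher and 8 lower in siNTC PA, against 15.5% and 15.1% of all genes. Calr, for the endoplasmic reticulum chaperone and calcium binder calreticulin, had 1104, 1142 and 1176 CPM in BSA and 4065, 4343 and 4324 CPM in PA, a 3.72-fold rise (edgeR adjusted p = 1.86e-24). Tmem38a, for the counter-ion channel TRIC-A, fell from 199 ± 5.96 to 133 ± 6.09 CPM (SD, n = 3, edgeR adjusted p = 1.36e-11). Srl, for the luminal protein sarcalumenin, fell from 408 ± 19.2 to 280 ± 7.35 CPM (edgeR adjusted p = 2.99e-11), and Calm3, a calmodulin gene, from 256 ± 6.55 to 191 ± 11.5 CPM (edgeR adjusted p = 7.61e-09). The Calm3 call was lost without siNTC PA replicate 3, where the log2 fold change was -0.38.

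Of 11 genes of the voltage sensor and triad assembly, 1 was higher and 4 lower in siNTC PA, against 15.5% and 15.1% of all genes. Mtm1, for the phosphoinositide phosphatase myotubularin, rose from 7.11 ± 0.911 to 23.6 ± 0.261 CPM (edgeR adjusted p = 1.65e-17), or 3.37-fold. Jph2, the junctophilin related to Jph1, had 304, 342 and 353 CPM in BSA and 192, 188 and 178 CPM in PA, with a log2 fold change of -0.84 ± 0.06 (edgeR adjusted p = 8.28e-14). Stac3, needed for coupling of the voltage sensor to Ryr1, fell from 36.9 ± 0.199 to 23.1 ± 1.73 CPM, and Cav3, for caveolin-3, from 105.4 ± 4.46 to 74.99 ± 0.956 CPM. Cav3 was called lower with PA in siNTC alone, and not in siErk3 or siMk5. Jph2 was thus lower by more than Jph1 in log2 terms, a difference that was not tested.

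Of 12 genes of store-operated entry, IP3 receptors and export, 4 were higher and 5 lower in siNTC PA, against 15.5% and 15.1% of all genes. The IP3 receptor gene Itpr2 rose 1.90-fold (edgeR adjusted p = 1.45e-15), the entry channel gene Orai2 1.88-fold (edgeR adjusted p = 1.51e-14) and the plasma membrane pump gene Atp2b1 1.57-fold (edgeR adjusted p = 1.18e-12). The related pump gene Atp2b4 had 150, 161 and 167 CPM in BSA and 61.7, 51.1 and 41.0 CPM in PA, 3.11-fold lower (edgeR adjusted p = 4.74e-14). These 2 plasma membrane pump genes were called in opposite directions in all 3 comparisons.

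Of 7 cytosolic buffering and signalling genes, Rcan1, an inhibitor of calcineurin, rose 1.54-fold (edgeR adjusted p = 1.97e-09) and Camk2b, a calmodulin-dependent kinase gene, fell 1.82-fold (edgeR adjusted p = 1.02e-08). No other gene of this list was called in siNTC PA, where 15.5% of all genes were higher and 15.1% lower. Contractile genes were counted beside the pumps. Of 8 fast contractile genes 4, 3 and 2 were lower with PA in siNTC, siErk3 and siMk5, with median log2 fold changes of -0.38, -0.29 and -0.15. Of 7 slow contractile genes 1, 2 and 1 were lower, Myh7 in each, with medians of -0.19, -0.24 and -0.02. Of either list 0 were higher, and 15.1%, 16.3% and 14.6% of all genes were lower.

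**Figure D4:**
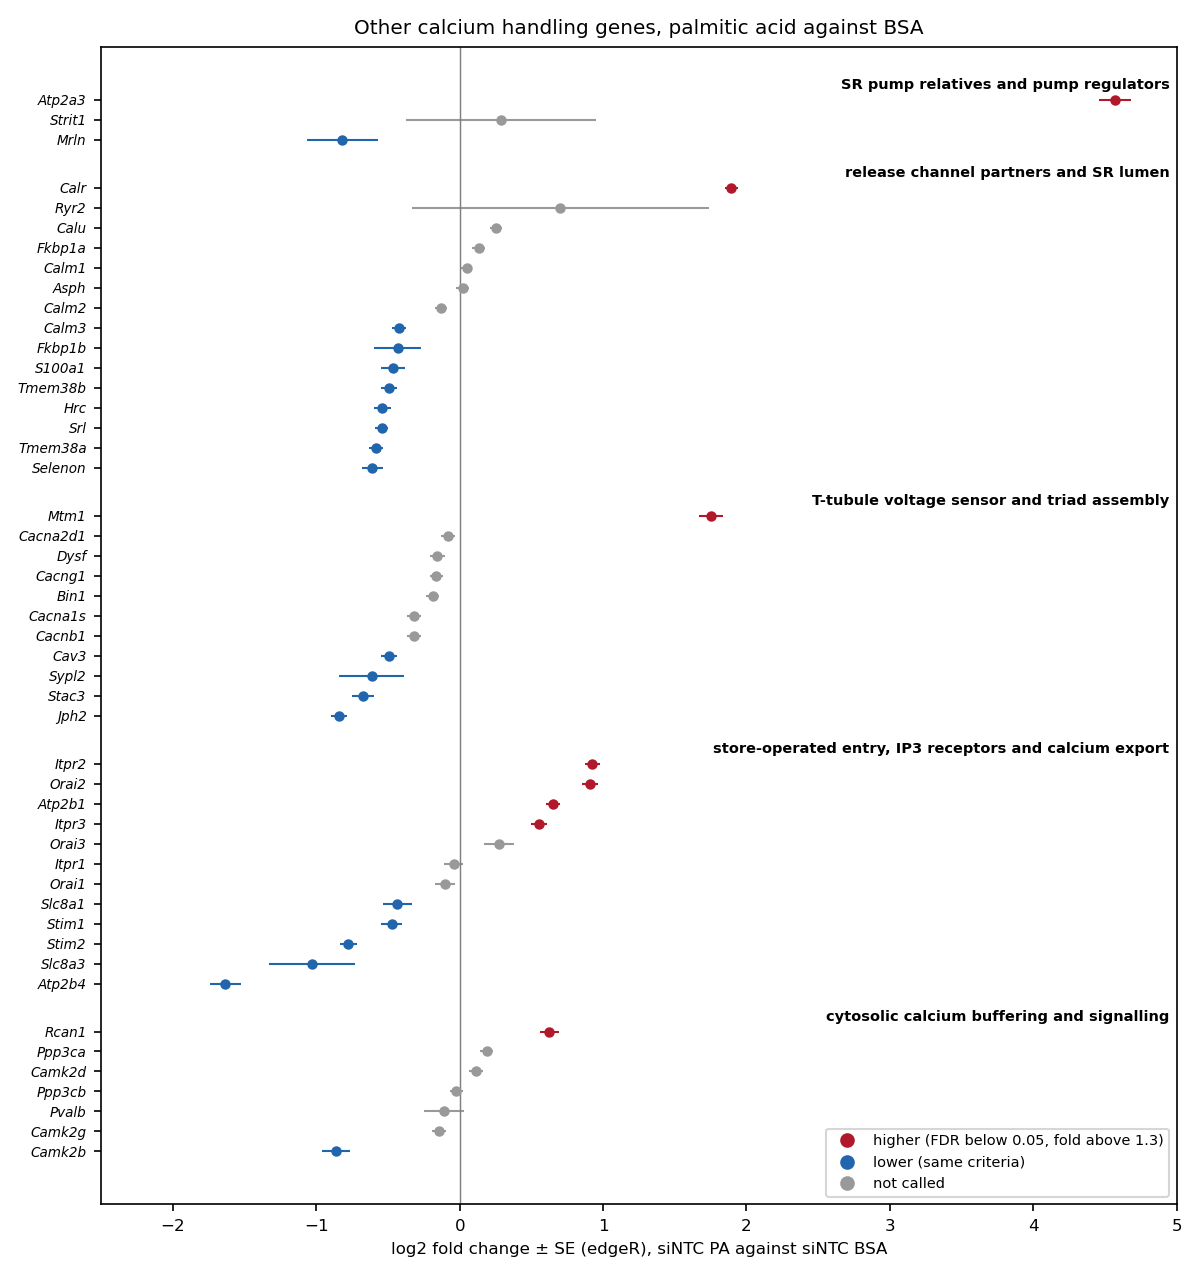
Log2 fold change ± SE (edgeR) of the 48 tested calcium handling genes outside the 10 listed ones, in siNTC PA against siNTC BSA, grouped by list. Red points were called higher (8), blue points lower (19) and grey points not called (21). Atp2a3 stands apart at 4.57.

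Silencing left nearly all of these genes uncalled. Pvalb, for the cytosolic calcium buffer parvalbumin of fast fibers, had 6.26, 7.38 and 7.25 CPM in siErk3 PA and 4.41, 4.79 and 4.70 CPM in siNTC PA, a log2 fold change of 0.59 ± 0.13 (SE, edgeR adjusted p = 0.0147). Against siMk5 PA, at 5.26, 4.10 and 3.61 CPM, it was 0.68 ± 0.13 (edgeR adjusted p = 0.00168). The first call was lost without siNTC PA replicate 1, siNTC PA replicate 2 or siErk3 PA replicate 2, at 0.55, 0.62 and 0.54. Pvalb was the only call among the 48 genes in either comparison, where 0.556% and 1.03% of all genes were called. An unadjusted p under 0.05 was reached by 11 and 10 of the 48, against 8.28% and 10.2% of all genes. In siErk3 BSA, siMk5 BSA and siMk5 PA against siNTC, 0 of the 48 genes were called by edgeR and 0 by DESeq2, with 10, 9 and 5 at an unadjusted p under 0.05, against 10.6%, 6.89% and 6.79% of all genes. The backgrounds of called genes there were 0.785%, 0.0643% and 0.547% of all genes. Between siErk3 BSA and siMk5 BSA 0 were called by either tool, with 6 at an unadjusted p under 0.05, against 8.49%, and a background of calls of 0.588%. For the changes with PA in siErk3 and in siMk5 minus that in siNTC the counts were 0 by either tool, with 5 and 7 at an unadjusted p under 0.05, against 6.1% and 7.43%. Backgrounds of calls for these 2 differences were 0.0367% and 0.211%.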

How the data were processed

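RNA was measured in 18 C2C12 libraries, grouped by the siRNA and medium in their labels. The authors deposited counts of read pairs per gene as raw numbers. Per the methods, TrimGalore trimmed the reads, STAR aligned them to GRCm39 and the pairs were counted with featureCounts on the reverse strand. The count table header gives featureCounts 2.0.0, Ensembl release 105 of GRCm39 and a minimum mapping quality of 3, while a label names mm10. Coordinates and exon lengths are those of the count table. Pairs with low mapping quality can stem from near-identical genes. Shared stretches of 50 bases were compared only between a few related genes, not for Trdn, Jsrp1 or Sln. As for overlapping annotation, none of the listed genes shares exonic bases with another gene on its strand. Deposited log2 values were not used. Columns of other samples numbered 0.

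Symbols came from GENCODE M39 for 54749 of 55414 genes. The 21772 genes reaching 10 counts over all libraries were fitted with edgeR 4.0.16 in R 4.3.3, in 1 quasi-likelihood fit of 18 libraries with TMM normalization and a coefficient per group. Calls needed a Benjamini-Hochberg FDR below 0.05 over all genes and a fold change above 1.3, the criteria of the methods, which used DESeq2. SE is the log2 fold change divided by the root of the F statistic. CPM are TMM-normalized. The counting precision follows from the counts, at total counts of 13041979 to 28496727 per library. Simulated counts for 21388 genes, 200 of them shifted by 1 on the log2 scale in siNTC PA against siNTC BSA, gave 97.5% recovered and 9 unchanged genes called. The shifted genes had means above 1 CPM and all others were equal between groups, whereas 30.6% of genes were called in the data. Recovery of smaller shifts was not tested.

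The listed genes, lists, tests and alternatives were chosen with earlier results of these data known. Named genes are the listed and silenced genes, up to 4 called genes per list and comparison by adjusted p in the 5 calcium lists, and the 3 nearest profiles of Atp2a1, Atp2a2 and Trdn. Genes outside this rule, such as markers, are named beside the counts they enter. Alternatives were DESeq2 1.42.0, its size factors, other filters, the FDR alone, fewer libraries, the replicate block, total counts only, each library left out, and, added after the data were seen, the Rn18s-rs5 share as a covariate. Figures were drawn with matplotlib 3.10.9 in Python 3.11.15.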

Additional observations from a re-analysis of the deposited data

Results flagged for a closer look

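The response of Trdn to PA differed between siMk5 and siNTC. The log2 fold change of PA against BSA in siMk5 minus that in siNTC was 0.68 ± 0.15 (SE, edgeR, 12 libraries), and all 3 siMk5 PA libraries lay above the 3 siMk5 BSA libraries. The siNTC groups overlapped. Leaving out 1 library at a time gave 0.52 to 0.83, and the call held in 3 of 12 such fits. The siMk5 BSA libraries had the highest Rn18s-rs5 shares, 8.39% to 12.87%. With that share as a covariate the value was 0.59 and no longer called, and the cause was not tested. Because Trdn is among the genes listed with results known, this difference is a description only.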

How the results depend on the processing

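For the 9 listed genes, the log2 fold changes under the alternatives kept within the spread between replicates in 1380 of 1395 values, and no called value reversed. Atp2a1, Atp2a2 and Ryr3 were called in PA against BSA under each siRNA in every fit with a library left out. The number of listed genes called rose from 3 to 5 in siNTC and in siErk3 by the FDR alone, and in siMk5 BSA against siNTC BSA from 1 to 2 without a filter or with only the libraries compared (1 to 2 with a library left out). It fell from 1 to 0 with at least 10 counts in every library and with the Rn18s-rs5 covariate for siErk3 BSA against siMk5 BSA and for the siMk5 interaction with PA (0 to 1 with a library left out, for both).

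For the other calcium handling genes, the FDR alone gave 35 in place of 22 calls in siMk5 PA against BSA, 3 in place of 1 in siErk3 PA against siNTC PA (0 to 1 with a library left out), 2 in place of 1 in siErk3 PA against siMk5 PA, and 1 in place of 0 in siErk3 BSA and in siMk5 PA against siNTC. In siErk3 BSA against siMk5 BSA the count was 1 in place of 0 without a filter and with only the libraries compared (0 to 1 with a library left out). Of the log2 fold changes of called calcium genes, 963 of 1001 kept their call and direction and 38 lost the call.

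Over all genes, the siErk3 interaction had 8 calls, and 4 with DESeq2 size factors, 72 without a filter, 0 with at least 10 counts in every library and 29 with the covariate (0 to 24 with a library left out). The siMk5 interaction had 46, and 130 without a filter and 0 with the covariate (24 to 67). siErk3 BSA against siMk5 BSA had 128, and 201 without a filter and 78 with the covariate. siErk3 BSA against siNTC BSA had 171, and 263 by the FDR alone and 111 with the covariate (111 to 146). siErk3 PA against siNTC PA had 121, and 186 by the FDR alone and 208 without a filter. siMk5 BSA against siNTC BSA had 14, and 61 without a filter and 34 with only the libraries compared (6 to 31). The cause of these shifts was not tested.

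Only same-numbered libraries were correlated, so the check cannot decide whether the replicate numbers pair libraries across groups. Over 45 pairs of same-numbered libraries, the deviations from the group means correlated with r between -0.60 and 0.51, with a mean of -0.01, over 10681 genes, and 9 pairs exceeded 0.1. The lowest r was between siNTC PA and siErk3 PA and the highest between siErk3 PA and siMk5 PA, both for replicate 1. For replicate 3 the same pairs of groups gave -0.58 and 0.42, and for replicate 2 they gave 0.01 and 0.05. Between siNTC PA and siMk5 PA r was -0.49, 0.04 and -0.40 for replicates 1, 2 and 3. With the replicate block, 6599 genes were called in siNTC PA against BSA in place of 6661, and the number of listed genes called in that comparison stayed 3. No call count moved by over 1.5 times under the block.

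Levels per length moved by more than the spread between replicates in 12 of 108 values, all with total counts in place of TMM. Depth limits Sln and Pln, which had too few counts to compare.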
